A study of Mus musculus with 7 samples.

Results

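The genes described here are 9 genes of the interleukin 1 (IL-1) pathway and of the inflammasome, the protein platform that matures IL-1 cytokines. They were chosen by symbol, by a rule that uses no measured value, though with earlier results of these data known, out of 47643 genes in the expression table. The 9 genes are the cytokines Il1a, Il1b and Il18, the receptor antagonist Il1rn, the sensor Nlrp3, the adaptor Pycard, the proteases Casp1 and Casp4, and the pore-forming protein Gsdmd. All 9 were expressed well above the low-value limit of the test, a mean of 1 unit of TPM, transcripts scaled to a library sum of 1000000, which 11397 genes passed. TPM also divides the reads of a gene by its length, so levels can be set side by side between genes.

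The RNA came from mouse lung alveolar macrophages sorted as CD11c+ F480+ SiglecF+ cells, the resident macrophages of the air spaces. The 3 wild-type libraries are called WT. A further 3 libraries carried the genotype cSiah1a/2f/f::Lyz2cre and are called Lyz2cre, and 1 library carried cSiah1a/2f/f::CD11ccre and is called CD11ccre. The ubiquitin ligase genes Siah1a and Siah2 are floxed in both, and Cre recombinase comes from Lyz2, which is active across macrophages, monocytes and neutrophils, or from CD11c, which is active in alveolar macrophages and dendritic cells. No treatment, age, sex or strain is given in the sources used here, nor whether a library holds 1 animal or a pool. Nothing in the labels says that replicates came from separate animals. The p-values therefore compare group differences with variation between libraries, which may not be variation between animals. CD11ccre has no replicate, and its tests assume that it varies like the other groups.

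Siah1a measured 16.6, 6.72 and 13.4 TPM across the WT libraries, 0, 0 and 0.05 TPM across the Lyz2cre libraries and 0 TPM in the CD11ccre library. The WT mean of Siah2 was 14.5 ± 2.47 TPM (SD, n = 3), that of Lyz2cre 1.63 ± 0.275 TPM (SD, n = 3), and the CD11ccre value 1.21 TPM. All 13 alveolar macrophage markers examined passed the low-value limit, but 8 of them were called in Lyz2cre, 4 higher and 4 lower. Siglecf, a gene of the sort, fell from a mean of 231 to 84.5 TPM (2.73-fold; limma adjusted p = 0.00746) and was 53.9 TPM in CD11ccre. Ear1 fell 5.10-fold, whereas Marco rose 3.28-fold and Chil3 2.79-fold. The part of these marker changes in the IL-1 values was not tested. Lyz2 itself was 50676 TPM in CD11ccre, or 5.07% of that library, against a WT mean of 78.8 TPM and a Lyz2cre mean of 54.7 TPM. CD11ccre against WT therefore also differs in Lyz2, in which WT lay near Lyz2cre. The sample titles do not say whether WT carries a Cre allele, and the cause of this difference was not tested. Ftl1, Fth1 and Chil3 together took 4.90% to 5.29% of each WT library, 14.4% to 16.3% of each Lyz2cre library and 14.0% of CD11ccre. Mitochondrially encoded genes took 7.54% to 9.25% in WT, 2.67% to 4.61% in Lyz2cre and 4.23% in CD11ccre. The median log2 fold change over all genes tested was -0.16 in Lyz2cre and -0.29 in CD11ccre, with TPM held to a fixed sum in each library. The part of these shifts in any gene's change was not tested beyond the scaling alternatives. Those are given for some genes only, beside the results and at the end. In bulk RNA, fewer cells of a type and less RNA per cell cannot be told apart.

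IL-1 alpha and IL-1 beta act through the same receptor and the adaptor MyD88 to switch on inflammatory genes, and the receptor antagonist occupies that receptor without signalling. IL-1 beta and IL-18 are made as inactive precursors. Sensors such as NLRP3 assemble with the adaptor ASC and caspase-1, which cuts the precursors and also gasdermin D, whose pores release the cytokines and can kill the cell. Transcription of Il1b and Nlrp3 is induced by inflammatory signals, whereas cleavage is not visible in RNA, so every value here is a transcript level and not cytokine release.

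Within WT, Il18 was the most abundant of the 9 transcripts, at 624 ± 94.4 TPM (SD, n = 3). Il1rn came next at 184 ± 35.7 TPM, and neither overlapped its neighbour in the order. Pycard, Casp1, Nlrp3, Il1a, Gsdmd and Il1b followed, from 69.8 down to 44.1 TPM, and each overlapped the next in its library values. Casp4 was lowest at 30.4 ± 4.55 TPM, with no library as high as the lowest Il1b library.

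The promoters of the 3 ligand genes that passed the test in Lyz2cre against WT, Il1b, Il1rn and Il1f9, are printed for a reader who wants the sequence beside the values. They come from RefSeq (GRCm38.p6), and the table used matched 8 of the 9 genes, all but Gsdmd. Each shows the 250 bases before an annotated start, 5′ to 3′ on the gene's strand, and Il1rn is shown for its first start and a later one. Capitals mark matches on either strand to a TATA box (TATAAA), an AP-1 site (TGANTCA), a C/EBP-like site (TTNNGNAA), an antioxidant response core (TGACNNNGC) or the kappaB consensus.
Il1b promoter, chr2:129371140-129371389, minus strand: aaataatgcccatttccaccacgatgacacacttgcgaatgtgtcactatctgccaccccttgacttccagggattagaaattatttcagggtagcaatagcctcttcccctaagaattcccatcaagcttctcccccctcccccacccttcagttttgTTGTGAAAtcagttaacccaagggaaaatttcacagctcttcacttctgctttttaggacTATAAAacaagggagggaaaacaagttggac
Il1rn first start, chr2:24336610-24336859, plus strand: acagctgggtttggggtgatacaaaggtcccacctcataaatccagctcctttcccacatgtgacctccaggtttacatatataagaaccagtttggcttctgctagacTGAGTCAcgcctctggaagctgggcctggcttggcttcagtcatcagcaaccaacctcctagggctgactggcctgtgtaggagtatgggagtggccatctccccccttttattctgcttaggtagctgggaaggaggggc
Il1rn later start, chr2:24345041-24345290, plus strand: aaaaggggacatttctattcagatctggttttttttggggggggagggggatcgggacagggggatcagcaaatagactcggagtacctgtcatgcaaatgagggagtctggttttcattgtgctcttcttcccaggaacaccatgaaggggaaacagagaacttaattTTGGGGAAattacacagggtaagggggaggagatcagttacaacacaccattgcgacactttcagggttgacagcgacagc
Il1f9 promoter, chr2:24186226-24186475, plus strand: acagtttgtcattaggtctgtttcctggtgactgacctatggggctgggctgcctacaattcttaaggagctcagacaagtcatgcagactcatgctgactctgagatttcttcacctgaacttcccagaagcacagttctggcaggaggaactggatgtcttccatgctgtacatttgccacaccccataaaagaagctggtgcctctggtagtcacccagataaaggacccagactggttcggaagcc

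The Il1b window held a TATA box at positions -31 to -26 and a C/EBP-like match at -91 to -84, counted back from the start. The first Il1rn window held an AP-1 match at -141 to -135, the later one a C/EBP-like match at -81 to -74, and the Il1f9 window held none of the 5. Another later Il1rn start, with the window chr2:24345121-24345370, is not printed. Its window overlaps the printed later one and held C/EBP-like matches at -161 to -154, -65 to -58 and -64 to -57. Of 32851 RefSeq windows of this length, 12.4% held the TATA box, 6.75% the AP-1 site, 36.8% the C/EBP-like site, 10.2% the antioxidant response core and 7.25% the kappaB consensus. Matches are letters in a window and not binding sites.

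Il1b was the 1 member that passed the test as higher in Lyz2cre. It encodes IL-1 beta and lies on chromosome 2 (GENCODE M21, GRCm38; 129364570 to 129371139, minus strand). Il1b measured 37.1, 59.9 and 35.2 TPM across the WT libraries, 132, 122 and 86.2 TPM across the Lyz2cre libraries and 60.1 TPM in the CD11ccre library. Every Lyz2cre library lay above every WT library, and CD11ccre lay just above the highest WT library. Lyz2cre averaged 113 ± 23.8 TPM against 44.1 ± 13.8 TPM for WT (SD, n = 3 each), a 2.57-fold rise. On the log2(TPM + 1) scale, the change was 1.36 ± 0.25 (SE; 95% interval 0.79 to 1.93), with a limma adjusted p of 0.0228. Among the 6 omissions of a single WT or Lyz2cre library (single-library omissions) the call held without WT replicate 2 or Lyz2cre replicate 3 (adjusted p as low as 0.0216). Omitting WT replicate 1 gave 0.0752 and WT replicate 3 gave 0.0613. Omitting Lyz2cre replicate 1 gave 0.0789 and Lyz2cre replicate 2 gave 0.0790, so these 4 omissions ended the call. The call also went without the low-value filter (0.0856) and without limma's mean-variance trend (0.0520), and held under every scaling alternative. The antisense gene Il1bos, whose exons overlap those of Il1b, measured 0 to 0.31 TPM.

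Il1a, which encodes IL-1 alpha, a cytokine active without caspase-1 cleavage, did not pass the test. The gene lies on the same strand of chromosome 2 (129299610 to 129309972). Il1a measured 47.8, 60.8 and 53.7 TPM across the WT libraries, 68.3, 46.4 and 38.6 TPM across the Lyz2cre libraries and 36.9 TPM in the CD11ccre library. Lyz2cre libraries lay on both sides of the WT range. Its log2 fold change in Lyz2cre was -0.11 (95% interval -0.62 to 0.39) with a limma adjusted p of 0.796, and its sign turned under 3 scaling alternatives and without Lyz2cre replicate 3.

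Il18 encodes IL-18, which barrier tissues keep as a stored precursor (chromosome 9, 50554827 to 50581840, plus strand). It measured 628, 527 and 716 TPM across the WT libraries, 527, 447 and 542 TPM across the Lyz2cre libraries and 511 TPM in the CD11ccre library. Lyz2cre overlapped WT by 1 library. Il18 changed by a log2 value of -0.30 (95% interval -0.63 to 0.03; limma adjusted p = 0.241) in Lyz2cre.

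Il1rn encodes the IL-1 receptor antagonist (chromosome 2, 24336853 to 24351494, plus strand), and its TPM does not separate its annotated starts. It measured 168, 159 and 225 TPM across the WT libraries, 124, 112 and 104 TPM across the Lyz2cre libraries and 107 TPM in the CD11ccre library. All 4 knockout libraries lay below the lowest WT library. In Lyz2cre the mean was 1.62-fold lower, 114 ± 10.3 TPM against 184 ± 35.7 TPM (SD, n = 3 each). A log2 fold change of -0.68 ± 0.16 (SE; 95% interval -1.04 to -0.31) had a limma adjusted p of 0.0469. The call held in 6 of 18 alternatives and in 0 of 6 single-library omissions, where the adjusted p was 0.0646 to 0.151. Median-of-ratios scaling gave -0.50 and an adjusted p of 0.117.

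Because Il1b was higher and Il1rn lower, their TPM ratio differed more than either gene. The Il1rn to Il1b ratio was 4.52, 2.66 and 6.40 in WT, 0.946, 0.923 and 1.21 in Lyz2cre and 1.78 in CD11ccre. No Lyz2cre or CD11ccre library reached the lowest WT library, and in 2 of 3 Lyz2cre libraries the TPM of Il1b exceeded that of Il1rn. The means were 4.53 ± 1.87 and 1.03 ± 0.158 (SD, n = 3 each), and an exact two-sided permutation test of 3 against 3 cannot go below p = 0.1. A ratio within a library is free of the fixed sum of TPM.

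**Figure D1:**
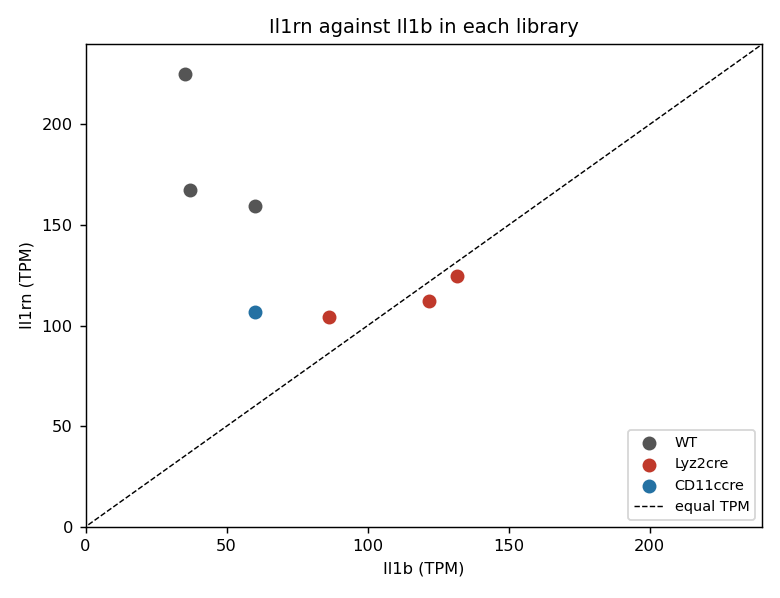
Il1b TPM on the horizontal axis against Il1rn TPM on the vertical axis, 1 point per library, coloured by genotype; the dashed line marks equal TPM. The 3 Lyz2cre libraries have the highest Il1b and, with CD11ccre, Il1rn below every WT library.

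The ratio of Il1b to Il1a, chosen after the values were seen, was 0.776, 0.986 and 0.655 in WT, 1.93, 2.62 and 2.23 in Lyz2cre and 1.63 in CD11ccre. Il1a was the more abundant of the pair in every WT library, and Il1b was in every knockout library.

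Nlrp3 encodes the sensor that detects membrane damage and potassium loss (chromosome 11, 59541568 to 59566956, plus strand). It measured 58.7, 61.5 and 71.1 TPM across the WT libraries, 90.7, 73.1 and 75.9 TPM across the Lyz2cre libraries and 75.4 TPM in the CD11ccre library. All 4 knockout libraries lay above WT by a narrow margin. Nlrp3 had a log2 fold change of 0.32 ± 0.14 (SE) in Lyz2cre, with a limma adjusted p of 0.201.

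Pycard encodes ASC, the adaptor that joins sensor to caspase (chromosome 7, 127989708 to 127993867, minus strand). It measured 59.3, 87.5 and 62.6 TPM across the WT libraries, 41.0, 56.6 and 38.6 TPM across the Lyz2cre libraries and 44.8 TPM in the CD11ccre library. All 4 knockout libraries lay below WT, the opposite order to Nlrp3. For Pycard it was -0.61 ± 0.21 (SE; 95% interval -1.09 to -0.13), with a limma adjusted p of 0.125. Neither gene passed the test. The Nlrp3 to Pycard ratio, also chosen after the values were seen, was 0.990, 0.702 and 1.14 in WT, 2.22, 1.29 and 1.97 in Lyz2cre and 1.68 in CD11ccre.

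The protease genes gave no call. Casp1, the caspase that cuts the precursors of IL-1 beta and IL-18 (chromosome 9, 5298517 to 5307265, plus strand), measured 72.2, 52.0 and 67.9 TPM across the WT libraries, 71.1, 65.0 and 65.0 TPM across the Lyz2cre libraries and 80.4 TPM in the CD11ccre library. Its Lyz2cre libraries fell inside the WT range, with a log2 fold change of 0.078 (95% interval -0.27 to 0.43; limma adjusted p = 0.799). Casp4, the mouse caspase-11 gene and sensor of intracellular lipopolysaccharide, is its neighbour on chromosome 9 (5308828 to 5336783, plus strand). It measured 33.8, 32.2 and 25.2 TPM across the WT libraries, 36.6, 34.3 and 29.2 TPM across the Lyz2cre libraries and 38.6 TPM in the CD11ccre library, so that the groups overlapped. The log2 fold change was 0.13 (95% interval -0.25 to 0.51; limma adjusted p = 0.664).

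Gsdmd encodes gasdermin D, the pore that both caspases open by cleavage (chromosome 15, 75862327 to 75867408, plus strand). It measured 51.5, 53.9 and 42.8 TPM across the WT libraries, 43.7, 42.0 and 32.4 TPM across the Lyz2cre libraries and 31.5 TPM in the CD11ccre library. CD11ccre was the lowest library, and 1 Lyz2cre library reached the WT range. Its log2 fold changes were -0.33 in Lyz2cre (limma adjusted p = 0.266) and -0.63 in CD11ccre (limma adjusted p = 0.170).

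**Figure D2:**
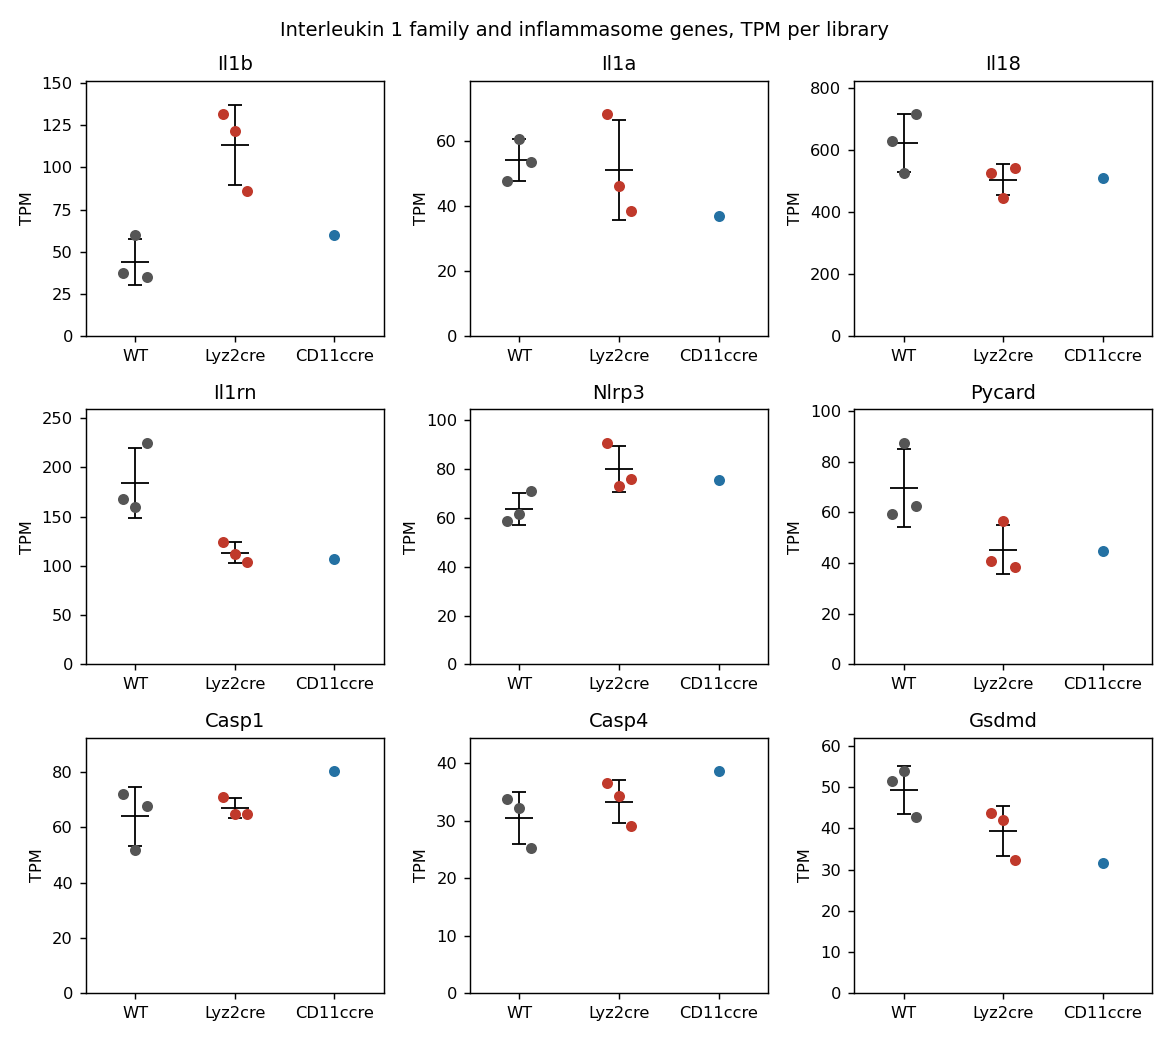
TPM of the 9 genes in each library, 1 panel per gene with its own vertical axis from 0; points are libraries, and the bars give the mean and SD of WT and Lyz2cre. Il1b is higher and Il1rn lower in all 3 Lyz2cre libraries than in any WT library, as are Nlrp3 (higher) and Pycard (lower).

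In all, 2 of the 9 genes passed the test in Lyz2cre against WT, 1 higher and 1 lower, against a background of 6.76% of all genes tested. At an unadjusted p under 0.05 there were 4, where 24.6% of all genes tested had such a p. The libraries of the groups did not overlap for 4 members (Il1b, Il1rn, Nlrp3 and Pycard; exact two-sided permutation p = 0.1 for each, the smallest possible), where 30.8% of all genes tested did not overlap. The median log2 fold change of the 9 was -0.11, beside -0.16 for all genes tested.

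No member passed the test in CD11ccre against WT, where 2.89% of all genes tested did by limma, and 2 members (Il1rn and Gsdmd) had an unadjusted p under 0.05, as did 22.3% of all genes tested. Il1b was 1.36-fold the WT mean there, with a log2 fold change of 0.48 (95% interval -0.33 to 1.29; limma adjusted p = 0.450). Il1rn was 1.72-fold lower, at -0.76 (95% interval -1.28 to -0.25; limma adjusted p = 0.107). All 9 members had a CD11ccre value outside the WT range, as did 63.5% of all genes tested. The median of the 9 was -0.28, beside -0.29 for all genes. Both knockout comparisons share the WT libraries.

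A comparison of the Cre lines with each other, added after the values were seen, called 0 of the 9 members, against 0.114% of all genes tested. Il1b was the 1 member with an unadjusted p under 0.05, which 6.10% of all genes tested had. Its log2 difference, CD11ccre minus Lyz2cre, was -0.88 (95% interval -1.69 to -0.07), with a limma adjusted p of 0.817. The 1 CD11ccre library gives no replicate check of this difference.

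**Figure D3:**
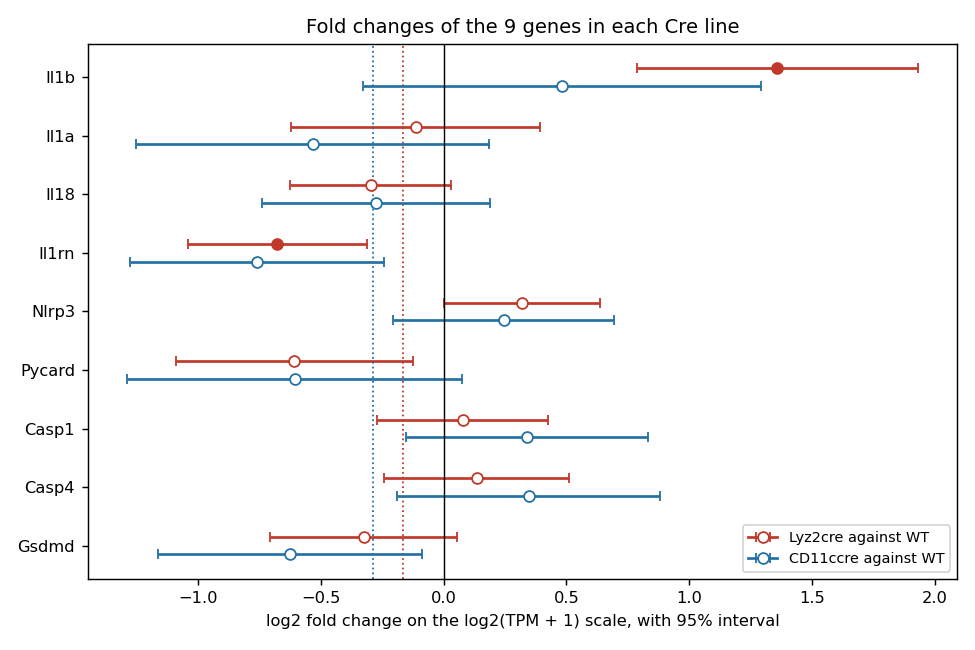
Log2 fold change on the log2(TPM + 1) scale of each of the 9 genes in Lyz2cre and CD11ccre against WT, with 95% intervals; filled points passed the test, open points did not, and dotted lines mark the median of all genes tested in each comparison. Only Il1b and Il1rn in Lyz2cre are filled.

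The wider pathway was read from 7 lists with 70 genes in the table, of which 48 passed the low-value limit. Rises and falls counted here and in the lists below are genes that passed the test. In Lyz2cre 3 rose and 2 fell, or 10.4% of the 48 against the background of 6.76%. Their median log2 fold change was -0.06, beside -0.16 for all genes tested. The 48 include 2 genes (Il1f9 and Naip1) with a WT mean under 1 TPM and 1 (Nlrp1b) with a Lyz2cre mean under it, which passed the limit through the other libraries. In CD11ccre the median log2 fold change of the 48 was -0.23, beside -0.29 for all genes tested.

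Il1f9, another IL-1 family ligand, was called in both comparisons. It encodes IL-36 gamma, an epithelial and myeloid alarm cytokine, and sits on chromosome 2 upstream of Il1rn (24186476 to 24193568, plus strand). It measured 0.17, 0.52 and 0 TPM across the WT libraries, 6.71, 5.22 and 8.19 TPM across the Lyz2cre libraries and 5.79 TPM in the CD11ccre library. All 4 knockout libraries stood above 5 TPM and no WT library reached 1 TPM. The log2 fold change, which understates a low gene, was 2.65 ± 0.30 (SE; limma adjusted p = 0.00502) in Lyz2cre and 2.49 (limma adjusted p = 0.0307) in CD11ccre. Il1f9 passed the low-value limit only through the knockout libraries, where it is high, so with its WT level it had to differ to be tested. With no filter the adjusted p was 0.0278. The Lyz2cre call held in all 17 alternatives that tested the gene. The CD11ccre call held in 8 of 16 and was lost in all 6 single-library omissions, with adjusted p from 0.0515 to 0.0701. Of the 6 ligand genes in the table, Il1f9 was the 1 tested: Il1f5, Il1f6, Il1f8 and Il1f10 were listed at 0 in every library, and Il33 was under the limit. Il33, an epithelial alarm cytokine, measured 0, 0.05 and 0.51 TPM for WT, 2.55, 0.6 and 1.03 TPM for Lyz2cre and 0.58 TPM for CD11ccre, so that the groups did not overlap at these low levels.

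**Figure D4:**
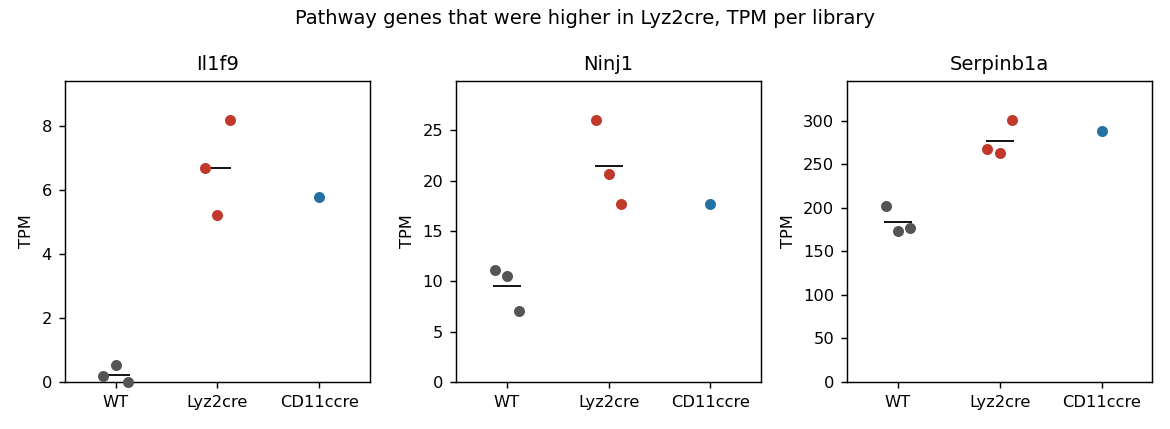
TPM of the 3 pathway genes that rose in Lyz2cre, Il1f9, Ninj1 and Serpinb1a, 1 panel per gene with its own vertical axis from 0; points are libraries and bars are group means. All 3 Lyz2cre libraries and CD11ccre lie above every WT library in each panel.

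None of the 4 receptors and decoys tested passed. Il1rl2, the receptor for IL-36 cytokines, measured 13.8, 15.3 and 17.1 TPM across the WT libraries, 10 to 13.3 TPM across the Lyz2cre libraries and 10.2 TPM in the CD11ccre library (limma adjusted p = 0.298 in Lyz2cre). Il1rap, the shared co-receptor, had a WT mean of 8.51 TPM and a Lyz2cre mean of 8.09 TPM, and the decoy receptor Il1r2 averaged 4.28 and 1.13 TPM (limma adjusted p = 0.113). Il1r1, the signalling receptor for IL-1 itself, stayed below 1 TPM in every library.

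Of 10 adaptors and kinases below the receptor, 1 fell. Tab2, a scaffold that binds ubiquitin chains and activates the kinase TAK1, measured 35.8, 35.3 and 45.1 TPM across the WT libraries, 24.4, 23.5 and 24.8 TPM across the Lyz2cre libraries and 22.8 TPM in the CD11ccre library. It was 1.60-fold lower in Lyz2cre, at -0.65 ± 0.14 (SE; limma adjusted p = 0.0409). The call held in 6 of 18 alternatives and in 0 of 6 single-library omissions, and median-of-ratios scaling gave -0.47 (limma adjusted p = 0.122). Myd88, the adaptor shared by IL-1 and Toll-like receptors, measured 110, 115 and 105 TPM in the WT libraries, against 75.8, 85.3 and 61.2 TPM for Lyz2cre and 70.2 TPM for CD11ccre (limma adjusted p = 0.0567 in Lyz2cre). Its exons overlap Acaa1a on the opposite strand, and the strand setting of the counting is not given in the sources used here.

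Other sensors gave no call among 7 tested. Aim2, a sensor of cytosolic DNA, ranged over 34.1 to 50.2 TPM among WT libraries and 33.8 to 56.1 TPM among Lyz2cre libraries. Naip2 and Naip5, receptors for bacterial secretion and flagellin proteins, had WT means of 26.2 and 24.5 TPM and Lyz2cre means of 39.6 and 17.0 TPM (limma adjusted p = 0.0659 and 0.0942).

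Among 8 regulators of NLRP3, 1 fell. Nek7, the kinase-family protein that binds NLRP3 and licenses its assembly, measured 44.9, 42.1 and 43.3 TPM across the WT libraries, 31.9, 27.0 and 29.6 TPM across the Lyz2cre libraries and 28.7 TPM in the CD11ccre library. It was 1.47-fold lower in Lyz2cre, at -0.55 ± 0.12 (SE; limma adjusted p = 0.0449). That call held in 6 of 18 alternatives and in 0 of 6 single-library omissions. Median-of-ratios scaling gave -0.37 and a limma adjusted p of 0.143. Txnip, an NLRP3-binding redox regulator, had a WT mean of 243 TPM and a Lyz2cre mean of 266 TPM.

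Release and processing genes gave 2 of the 3 rises. Ninj1 encodes the membrane protein that ruptures dying cells after gasdermin pores form. It measured 11.2, 10.5 and 7.07 TPM across the WT libraries, 26.01, 20.6 and 17.7 TPM across the Lyz2cre libraries and 17.7 TPM in the CD11ccre library, a 2.24-fold rise in Lyz2cre (log2 1.09 ± 0.22 SE; limma adjusted p = 0.0335). The call was lost in all 6 single-library omissions, at 0.0602 to 0.102. Serpinb1a, an inhibitor of neutrophil proteases, measured 201, 173 and 177 TPM across the WT libraries, 268, 263 and 300 TPM across the Lyz2cre libraries and 288 TPM in the CD11ccre library, a 1.51-fold rise (log2 0.59 ± 0.11 SE; limma adjusted p = 0.0253). It held in 1 of 6 omissions, with adjusted p up to 0.0984. Casp8, a caspase that can also cut IL-1 beta, had a WT mean of 138 TPM and a Lyz2cre mean of 109 TPM.

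Early genes induced by NF-kappaB, a factor that also drives Il1b, gave no call among 13 tested in Lyz2cre. Their median log2 fold change was 0.17, beside -0.16 for all genes tested, and 9 of the 13 had a positive value. The highest were Cxcl1 (1.90), Ccl4 (0.90) and Ccl3 (0.62), named after their values were seen. Negative values were those of Cxcl2 (-0.50), Nfkbiz (-0.42), Nfkbia (-0.24) and Tnfaip3 (-0.58). Tnf, another inflammatory cytokine and also named after its values were seen, measured 21.5, 29.3 and 25.4 TPM across the WT libraries, 37.4, 37.1 and 12.9 TPM across the Lyz2cre libraries and 16.8 TPM in the CD11ccre library. Nfkbia, the NF-kappaB inhibitor gene, had means of 224 and 190 TPM for WT and Lyz2cre, and Bcl2a1b, a survival gene, 652 and 778 TPM. Tnfaip3, a brake on NF-kappaB, had a log2 fold change of -0.58 in Lyz2cre and -1.44 in CD11ccre.

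**Figure D5:**
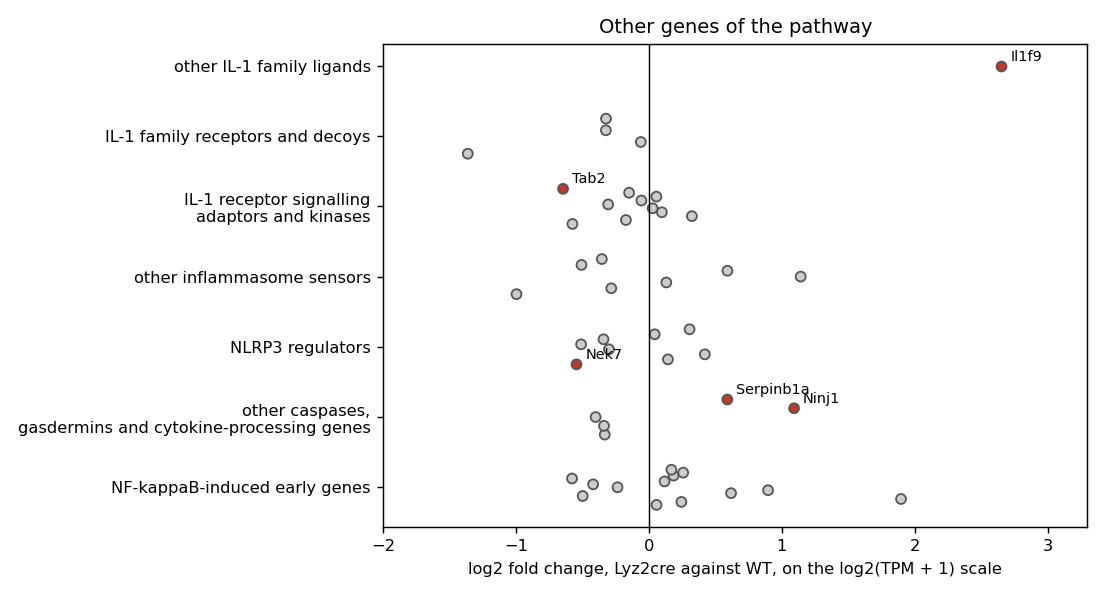
Log2 fold change of Lyz2cre against WT on the log2(TPM + 1) scale (horizontal axis) for the 48 tested pathway genes, 1 point per gene, arranged by list on the vertical axis; red labelled points passed the test and grey ones did not. Il1f9, Ninj1 and Serpinb1a lie above 0, and Tab2 and Nek7 below.

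Markers of other cell types are given beside Il1b. The summed level of the 12 neutrophil markers spanned 55.0 to 107 TPM over WT, 127 to 170 TPM over Lyz2cre, with CD11ccre at 152 TPM. Ly6g, Camp and Ngp were at 0 in every library. S100a8 rose from a mean of 24.9 to 101 TPM (limma adjusted p = 0.00985), whereas Csf3r fell (limma adjusted p = 0.0392) and S100a9 spanned 10.7 to 37.9 TPM among WT and 1.16 to 6.9 TPM among Lyz2cre libraries. Monocyte markers summed to 8.99 to 15.4, 7.77 to 8.88 and 11.2 TPM in WT, Lyz2cre and CD11ccre, the order also used below. Within that list Ccr2 fell 6.27-fold in Lyz2cre (limma adjusted p = 0.0360), while Hp averaged 3.76 TPM in WT and 6.49 TPM for Lyz2cre without passing the test. Markers of interstitial macrophages summed to 0.55 to 2.68, 3.15 to 11.7 and 4.6 TPM. Those of dendritic cells summed to 6.38 to 24.9, 2.26 to 6.06 and 2.56 TPM, with Batf3 falling in Lyz2cre (limma adjusted p = 0.0374). Batf3, at 18.05, 22.3 and 4.2 TPM, made up most of that sum in each WT library. Clec9a, the other of the 2 dendritic markers tested, went the opposite way without passing (limma adjusted p = 0.178). Its values were 0.51, 0.62 and 0.65 TPM for WT, 1.74, 2.14 and 1.51 TPM for Lyz2cre and 0.6 TPM for CD11ccre. B cell markers summed to 6.78 to 17.6, 0.69 to 2.76 and 2 TPM, with Igkc falling (limma adjusted p = 0.0315). The sums for T and NK cells were 0 to 10.3, 0 to 2.08 and 0.98 TPM. Those for alveolar type 2 epithelium were 88.4 to 95.7, 77.8 to 97.3 and 71.5 TPM. Genes within this last sum moved in both directions. Log2 fold changes in Lyz2cre were 0.67 for Sftpc, 1.06 for Sftpa1 and 0.94 for Sftpb, against -0.84 for Napsa and -0.068 for Abca3. Of these 5 genes, 0 passed the test. The part of any of these cell types in the IL-1 values was not tested.

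The 5 genes whose levels most resembled Il1b over the 7 libraries, by Pearson r among 8558 genes with a mean of at least 5 TPM, were 0610009O20Rik (0.964), Rilpl2 (0.955), Gm43814 (0.947), Mtor (0.945) and Cd300lf (0.945). Rilpl2 measured 73.2, 99.2 and 62.8 TPM across the WT libraries, 166, 157 and 126 TPM across the Lyz2cre libraries and 128 TPM in the CD11ccre library. Like Il1b, it was higher in every Lyz2cre library than in WT. These correlations describe 7 libraries in 3 genotypes that share the same scaling, and the ranking was made on the same values.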

How the data were processed

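Poly(A) RNA of 7 libraries (WT n = 3, Lyz2cre n = 3, CD11ccre n = 1) was sequenced single-end after a directional kit, per the labels' protocols. The authors deposited TPM to 2 decimals for 47643 genes. Trimming, alignment and quantification tools appear in the submitters' processing notes as RSEM 1.3.1, STAR 2.7.0d and cutadapt 2.3, with mm10 as the build; their parameters, the annotation and the strand setting are not stated there. TPM keeps no depth, so no counting intervals are given. Groups came from the sample titles.

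Genes were matched to GENCODE M21 (47224 of 47643). Values were fitted as log2(TPM + 1) by limma (version 3.58.1, R 4.3.3) with a trend, for the 11397 genes whose mean TPM reached 1, in 1 fit with a coefficient per genotype (4 residual and 3.35 prior degrees of freedom). P-values are two-sided and Benjamini-Hochberg adjusted across the whole fit, and 0.05 was the threshold. The script was tested on simulated data. The 18 alternatives changed the pseudocount, filter, scaling, variance model, replicate block or libraries.

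All 9 members are named; of the pathway lists, the genes called in Lyz2cre and up to 3 of the most abundant per list are named, and for likeness the 5 highest r. Other genes named were chosen after their values were seen. The members and lists were chosen with earlier results of these data known.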

Additional observations from a re-analysis of the deposited data

How the results depend on the processing

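Of the 9 members, 2 passed the limma test in Lyz2cre against WT. The count was 0 without a low-value filter and 0 without the mean-variance trend, and 1 (Il1b) with median-of-ratios scaling, with quantile normalization, after rescaling without Ftl1, Fth1, Chil3 and Lyz2, and with the replicate block; leaving out 1 WT or Lyz2cre library gave 0 to 1, and leaving out CD11ccre gave 2. In CD11ccre the count was 0 in every alternative. Deviations of same-number WT and Lyz2cre libraries had correlations of -0.0149, 0.0431 and 0.0656, and those of different-number libraries -0.0975 to 0.0599. These values show no clear pairing by replicate number, but cannot show how the libraries were processed. The replicate block changed the calls over all genes from 771 to 390 in Lyz2cre and from 329 to 21 in CD11ccre. Leaving out 1 WT or Lyz2cre library gave 239 to 514 calls in Lyz2cre and 94 to 183 in CD11ccre, and leaving out CD11ccre gave 833 in Lyz2cre. No filter gave 342 and 493, no trend 436 and 122, and rescaling without mitochondrially encoded genes 1151 and 551. Fewer replicates or a block leave fewer residual degrees of freedom; otherwise the cause was not tested. The Il1a change in Lyz2cre, -0.11, turned to 0.0635 with median-of-ratios scaling, 0.0617 with quantile normalization and 0.0479 after rescaling without Ftl1, Fth1, Chil3 and Lyz2; omitting 1 WT or Lyz2cre library gave -0.341 to 0.0626, positive without Lyz2cre replicate 3. Il18 in CD11ccre turned to 0.0425 with median-of-ratios scaling, and Casp1 in Lyz2cre ranged from -0.0626 (without WT replicate 2) to 0.170 over the same omissions. Median-of-ratios scaling moved Nlrp3 in Lyz2cre from 0.32 to 0.50 and Pycard from -0.61 to -0.43, and neither passed the test. In CD11ccre that scaling moved Il1rn from -0.76 to -0.45, Gsdmd from -0.63 to -0.32 and Il1b from 0.48 to 0.79. With median-of-ratios scaling the split of calls over all genes moved from 247 higher and 524 lower to 339 and 211 in Lyz2cre, and from 102 and 227 to 152 and 85 in CD11ccre.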
